A study of Homo sapiens with 6 samples.

Results

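The cytosolic ribosomal protein genes were followed in Meg-01 cells with and without propionate. Members were the protein-coding rows of the count table whose symbol begins with RPL or RPS and a digit, with RPSA, RPLP0, RPLP1 and RPLP2 added. Ribosomal S6 kinase genes, RPS4Y genes, RPS19BP1 and read-through genes with a hyphen were dropped. This left 85 of the 58735 rows, 32 for proteins of the small subunit and 53 for the large one, and 83 of the 85 passed the filter on low counts. RNA came from Meg-01, an established human megakaryoblastic line, so 1 cell line stands for the lineage. There were 3 control libraries of untreated cells and 3 C3 libraries of cells given 500 µM sodium propionate. Propionate, or C3, is a short-chain fatty acid of gut bacteria. By the labels this treatment lasted 48 h, while the methods also name a shorter incubation. The labels give no time for the control libraries. The study calls its libraries technical replicates, and nothing states that they came from separate cultures, so p-values measure the spread between these libraries only. In bulk RNA, fewer cells that express a gene and less of its RNA per cell cannot be told apart.

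The cytosolic ribosome translates nearly all cellular mRNAs. Its small subunit decodes the mRNA, its large subunit joins the amino acids, and the ribosomal proteins fold and hold the ribosomal RNA of each. The mRNAs of these proteins are among the most abundant of a growing cell. Most of them begin with a C followed by a run of C and T bases, the terminal oligopyrimidine (TOP) tract, through which mTOR signalling and the RNA-binding protein LARP1 set their translation and stability. Haploinsufficiency of single ribosomal protein genes causes Diamond-Blackfan anemia, a failure of red cell production, and loss of RPS14 takes part in the anemia of the 5q- syndrome, in which megakaryocytes are also abnormal.

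The tract was looked up in RefSeq's promoter sequences (GRCh38.p14), which hold 250 bases before and 50 after each annotated start. RPL7, RPL8, RPL30 and RPS20 were left out of this lookup by their place in the genome. The tract counts and medians do not cover them. Of the 85 members, 68 were looked up and had an entry. A C at the first transcribed base followed by at least 4 bases that were each C or T, read on the gene's own strand, stood at 47 of their 84 annotated starts (56.0%), against 4.07% of all 35116 starts in that table. Counted by gene, 47 of the 68 members had it at 1 start or more. The windows below hold 10 bases before and 20 from the annotated start for the 8 members that passed the test described further on and for RPL13A, the member with most reads. Capitals mark the tract, counted from the first transcribed base, and a window in lower case has none at that start.
RPS26, chr12:56041908-56041937, forward strand: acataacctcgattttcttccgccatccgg
RPLP0, chr12:120201092-120201121, reverse strand: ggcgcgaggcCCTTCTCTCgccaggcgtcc
RPL10, chrX:154398367-154398396, forward strand: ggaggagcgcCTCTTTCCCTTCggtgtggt
RPS12, chr6:132814559-132814588, forward strand: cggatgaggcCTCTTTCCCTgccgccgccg
RPS4X, chrX:72277229-72277258, reverse strand: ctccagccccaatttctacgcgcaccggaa
RPL12, chr9:127451387-127451416, reverse strand: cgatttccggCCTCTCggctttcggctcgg
RPL7L1, chr6:42879606-42879635, forward strand: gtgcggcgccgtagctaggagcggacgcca
RPS29, chr14:49598691-49598720, reverse strand: agcgcgcagctggcagcggtggttgtttct
RPL13A, chr19:49487598-49487627, forward strand: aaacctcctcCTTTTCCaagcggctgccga

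RPL10 has 3 annotated starts, of which the one with the longest tract is shown. Where no tract stands at an annotated start, this says only that these letters are not in that place, since cells can start a transcript some bases away. Among the members looked up, the 47 with the tract had a median log2 fold change of -0.08 after C3. The 20 tested ones with an entry and no tract had -0.10. These medians are a description with no test.

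Libraries held between 16159449 and 22821722 counts. The 85 members together took 9.30%, 9.49% and 9.84% of all counts in control libraries 1 to 3 and 9.72%, 8.84% and 9.08% in C3 libraries 1 to 3. Their 95% Wilson intervals, which cover counting error only, were at most as wide as the 9.82% to 9.85% of control library 3. The groups overlapped, because C3 library 1 lay above 2 of the control libraries. C3 minus control was -0.33 percentage points, less than the SD of the C3 libraries (0.45, n = 3). Genes of the mitochondrial genome took 4.16%, 4.58% and 5.51% of control and 3.83%, 3.87% and 3.51% of C3 counts, and their part in any result here was not tested.

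Within the groups, members moved together from library to library. On normalised counts (scaled with TMM factors, which make the bulk of genes comparable between libraries), the median member stood at -0.06, -0.01 and 0.08 on the log2 scale from its own control mean in control libraries 1 to 3. In C3 libraries 1 to 3 it stood at 0.01, -0.17 and -0.11. C3 library 1 was therefore level with the controls, whereas the other two C3 libraries were below them. Control library 3 had the highest value of its group in 71 of 83 members, and C3 library 1 had the highest of its group in 61. Results below are given with this in view, and calls lost when 1 library is left out are named for each gene whose call is described.

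**Figure D1:**
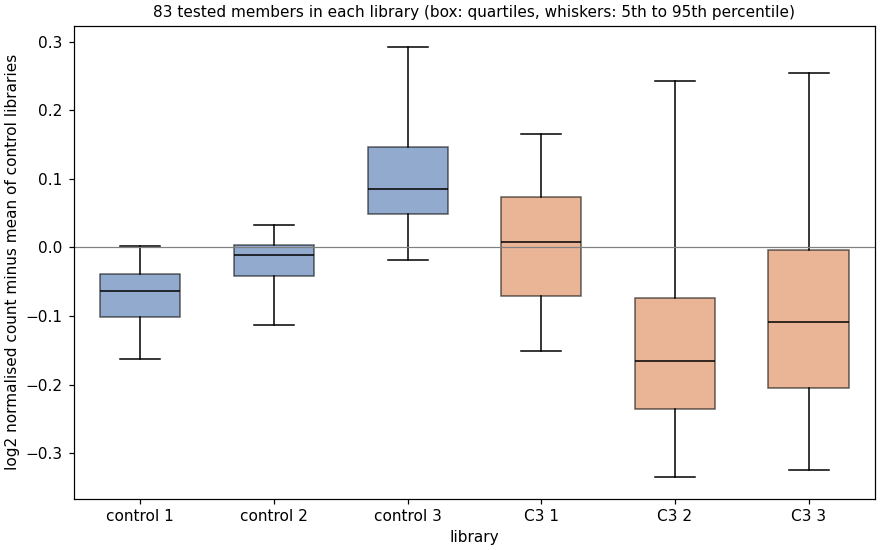
Log2 normalised count of the 83 tested members minus the mean of the control libraries, by library; boxes are quartiles over members, black lines medians and whiskers the 5th and 95th percentiles. The median of C3 library 1 (0.01) sits with the controls, and those of C3 libraries 2 and 3 (-0.17 and -0.11) sit below.

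To ask which ribosomal protein mRNAs differed between C3-treated and untreated cells, all 15078 genes that passed the count filter were tested with edgeR's quasi-likelihood test, and adjusted p-values below 0.05 were called. Small changes were found in 8 members. RPS26, RPLP0, RPL10, RPS12, RPS4X and RPL12 were lower by 12.7% to 20.8%, and RPL7L1 and RPS29 were higher by 16.8% and 22.8%. The 6 lower members are 7.23% of those tested, against the 8.77% of all tested genes called lower, and the 2 higher members are 2.41%, against 11.0% of all genes. Other fits gave other shares. DESeq2 called 16 of 84 members lower (19.0%) and 1 higher (1.19%), against 4.09% and 3.90% of its 28982 genes. Among the 13568 of those genes that passed the count filter and received an adjusted p-value, it called 19.3% of members and 8.74% of genes lower. With limma-voom, 13 members were lower (15.7%) and 2 higher (2.41%), against 9.10% and 10.8% of all genes. The share of members called lower was thus under that of all genes in the reported edgeR fit and above it in these. It was also above that of all genes in other edgeR fits, with GC content corrected (21.7% against 13.1%), with no count filter (16.9% against 7.51% of the genes of the reported fit) and with libraries scaled by their totals alone. By the gates the study used (adjusted p below 0.01 and a fold change above 1.3), which 1.47% of all genes passed as lower and 5.05% as higher, no member passed by edgeR, DESeq2 or limma-voom. At an unadjusted p below 0.05, 20 members were lower (24.1%) and 3 higher (3.61%) by edgeR, against 15.3% and 16.8% of all genes.

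Over all tested members there was a median log2 fold change of -0.09, with quartiles of -0.15 and -0.02, and the median of all tested genes was 0.0021. Values were below 0 in 66 members and above 0 in 17. With libraries scaled by their totals alone, the median became -0.01 with 49 values below 0, while that of all genes rose to 0.076, and 5 members were lower (6.02%) and 3 higher (3.61%), against 4.05% and 15.3% of all genes. The C3 libraries all lay below the control libraries in 14 members (16.9%), the same share as the 16.9% of all genes, and all above in 2 (2.41%), against 17.5% of all genes. The standard error of a single member was 0.072 at the median, so a change of the size of the median member could seldom be called by itself.

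**Figure D2:**
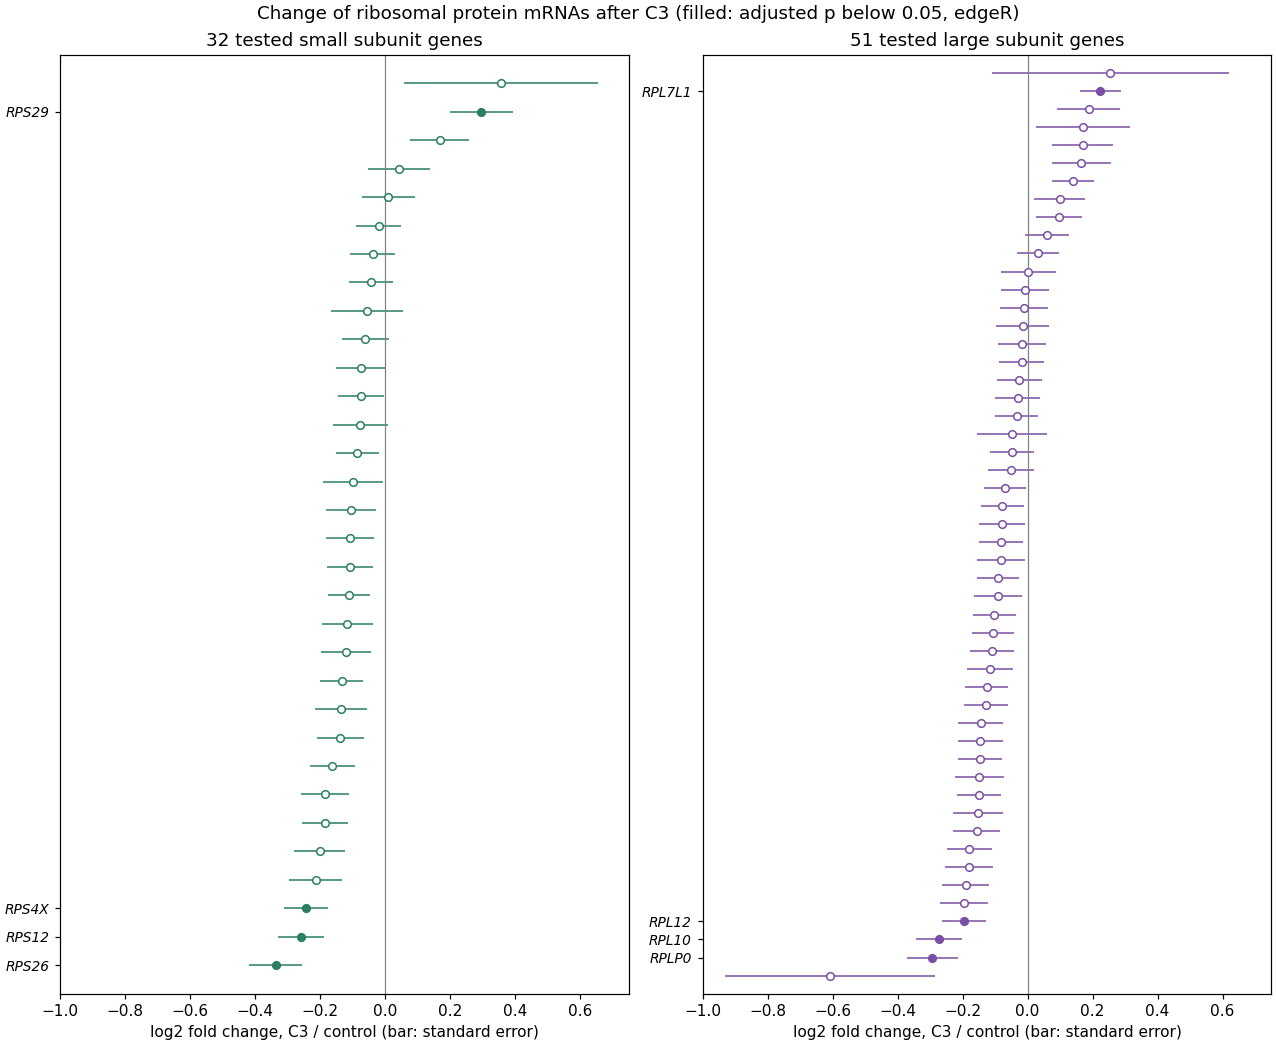
Log2 fold change of C3 over control (points) with its standard error (bars) for the 32 small subunit (left) and 51 large subunit (right) genes tested with edgeR; filled points, which are named, had an adjusted p below 0.05. The 8 filled points are RPS26, RPS12, RPS4X and RPS29 on the left and RPLP0, RPL10, RPL12 and RPL7L1 on the right.

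RPS26 (ENSG00000197728, chr12:56041351-56044697, forward strand) encodes a small subunit protein at the channel where the mRNA leaves, and is a Diamond-Blackfan anemia gene. Its normalised counts were 11444, 12021 and 12843 in control libraries 1 to 3 and 11362, 8510.05 and 8894 in C3 libraries 1 to 3. All C3 values were below all control values, but C3 library 1 was close to control library 1. Log2 fold change was -0.34 (standard error, SE, 0.082, edgeR's adjusted p = 0.0043). RPS26 was the member that kept its call in all 19 alternatives, with log2 fold changes of -0.47 to -0.26.

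RPLP0 and RPL12 lie side by side at the base of the ribosomal stalk, the flexible arm of the large subunit that recruits the elongation factors. RPLP0 (ENSG00000089157, chr12:120196699-120201235, reverse strand) had 70638, 73701 and 73658 normalised counts in control libraries 1 to 3 and 67747, 53264 and 56815 in C3 libraries 1 to 3. All C3 values were lower, with C3 library 1 nearest to the controls. The log2 fold change was -0.29 (SE 0.079, edgeR's adjusted p = 0.0091). RPL12 (ENSG00000197958, chr9:127447674-127451406, reverse strand) had 16738, 17333 and 18364 in control and 16449.8, 14439 and 14902 in C3 libraries. The groups did not overlap, and C3 library 1 lay just under control library 1. Its log2 fold change was -0.20 (SE 0.067, edgeR's adjusted p = 0.041), and this call was lost in 9 of 19 alternatives. The proteins that RPLP0 carries in the stalk come from RPLP1 and RPLP2, whose log2 fold changes of -0.15 (edgeR's adjusted p = 0.128) and -0.03 (edgeR's adjusted p = 0.81) did not pass the test.

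RPL10 (ENSG00000147403, chrX:154389955-154409168, forward strand) joins the large subunit late in its assembly, near the site of peptide bond formation. Its normalised counts were 40322, 41546 and 43600.3 in control libraries 1 to 3 and 37788, 33139 and 32849 in C3 libraries 1 to 3, with all C3 values lower. The log2 fold change was -0.27 (SE 0.071, edgeR's adjusted p = 0.0069). Of its exon bases, 50.5% overlap a gene of the other strand, and whether the counting used strand is not given in the sources read, which leaves part of its reads uncertain. This call was lost in 1 of 19 alternatives, without C3 replicate 3.

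RPS12 and RPS4X encode proteins of the small subunit, RPS12 in its beak. RPS12 (ENSG00000112306, chr6:132814569-132817564, forward strand) had 25887, 27373 and 29299 normalised counts in control and 25304, 22024 and 21695 in C3 libraries 1 to 3. All C3 values were lower, though C3 library 1 lay close to control library 1. Its log2 fold change was -0.26 (SE 0.072, edgeR's adjusted p = 0.012). RPS4X (ENSG00000198034, chrX:72255679-72277248, reverse strand) had 26222, 26940.0 and 28039.6 in control and 24898, 21508 and 22232 in C3 libraries. Here too the groups did not overlap, and the log2 fold change was -0.24 (SE 0.069, edgeR's adjusted p = 0.013).

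RPL7L1 (ENSG00000146223, chr6:42879616-42889925, forward strand), a relative of RPL7, rose. Its normalised counts were 4839, 4535 and 4991 in control libraries 1 to 3 and 5296, 5766 and 5707 in C3 libraries 1 to 3. All C3 values were above all control values, and the C3 library 1 value was the lowest of the C3 group. The log2 fold change was 0.22 (SE 0.063, edgeR's adjusted p = 0.013). RPS29 (ENSG00000213741, chr14:49570984-49599164, reverse strand) encodes a small zinc-binding protein of the small subunit and is also a Diamond-Blackfan anemia gene. It had 1633, 1671 and 2238 normalised counts in control and 2542, 1883 and 2372 in C3 libraries 1 to 3. The groups overlapped, since control library 3 lay above C3 library 2. Its log2 fold change was 0.30 (SE 0.097, edgeR's adjusted p = 0.032), and the call was lost in 6 of 19 alternatives.

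**Figure D3:**
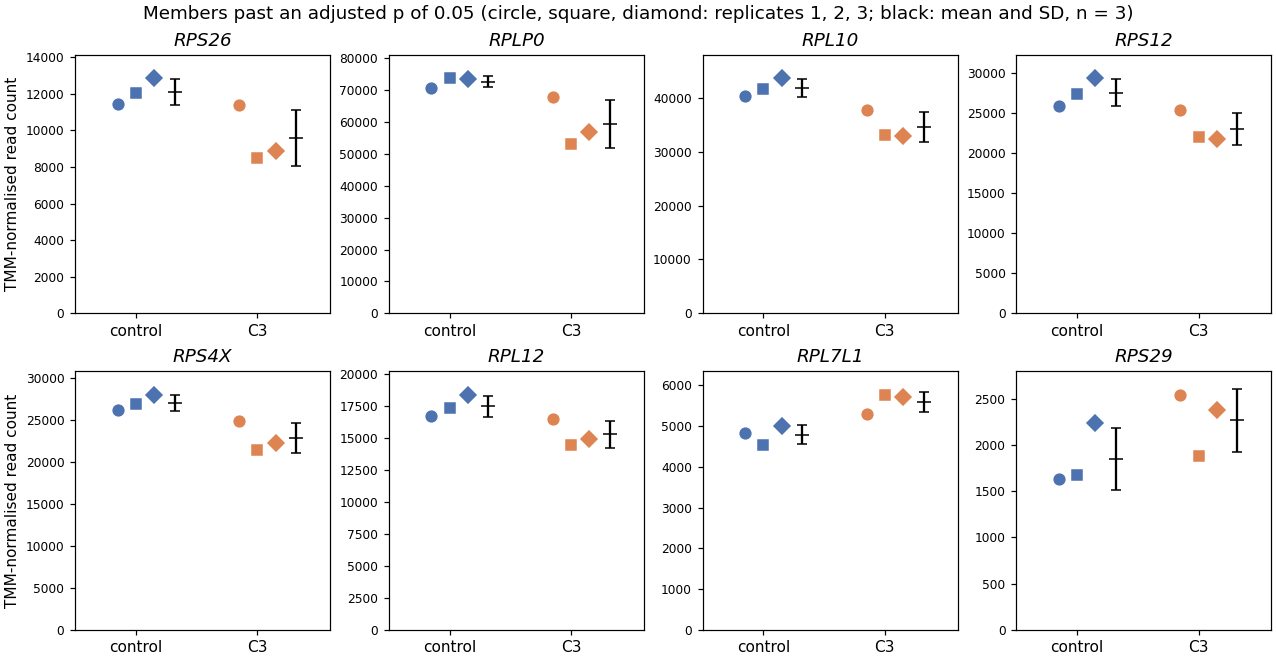
Normalised counts of the 8 called members in each control (blue) and C3 (orange) library, with the mean and SD (n = 3) in black; every axis starts at 0. In the 6 members that fell, the C3 library 1 value sits closest to the controls, and in RPS29 the groups overlap.

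The widest range in the count of lower members came from leaving out single libraries. Without C3 replicate 1, 32 members were lower (38.6%) and 3 higher, with a median of -0.12, while 12.7% of all genes were lower and 12.5% higher in that fit. RPS26 and RPLP0 then also passed the study's gates. Without C3 replicate 2 the count was 2 lower and 2 higher (2.41% each), against 5.43% and 8.62% of all genes. Without C3 replicate 3 it was 1 lower (1.20%) and 0 higher, against 4.02% and 7.16%, and without control replicate 2 it was 2 lower (2.41%) and 0 higher, against 4.69% and 7.86%. Without control replicate 1 there were 5 lower (6.02%) and 1 higher (1.20%), against 5.42% and 9.09% of all genes. Without control replicate 3 there were 4 lower (4.82%) and 6 higher (7.23%), against 7.39% and 9.19%, with a median of -0.04, and RPS29 passed the study's gates, as it did without C3 replicate 2. RPLP0, RPS4X and RPL7L1 lost their calls without C3 replicate 2, C3 replicate 3 or control replicate 2, and RPS12 without any of these or control replicate 3. RPL12 lost its call in 5 of the 6 fits with a library left out, all but that without C3 replicate 1, and with the replicate block, library size alone, the stricter filter or length corrected. RPS29 lost its call without C3 replicate 1, C3 replicate 3, control replicate 1 or control replicate 2, with DESeq2 and with length corrected. In every one of the 19 alternatives the 8 called members kept their sign.

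Both subunits showed like values. The 32 small subunit genes had a median log2 fold change of -0.11, with 3 lower (9.38%) and 1 higher (3.13%), and the 51 tested large subunit genes had -0.08, with 3 lower (5.88%) and 1 higher (1.96%). Of all tested genes, 8.77% were lower and 11.0% higher. Among the members next in order of p were RPL28 (-0.19), RPL3 (-0.19), RPSA (-0.18), RPL27A (-0.18) and RPS14 (-0.20), with edgeR's adjusted p-values of 0.064 to 0.074. RPL28 and RPL3 had no overlap between groups and the other 3 did. They were named after their values were seen, as members that just missed the threshold, and all 5 were called lower by DESeq2 and limma-voom, and all but RPSA with GC content corrected.

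More abundant members had lower fold changes. Spearman's coefficient between log2 fold change and mean normalised count was -0.59 across the 83 members, which share the same 6 libraries, and the counts enter both measures. The coefficient with the length of the canonical transcript was -0.13 and with GC content -0.28. The 57 members with a mean normalised count of at least 10000 had a median of -0.11 with 6 lower (10.5%) and 0 higher by edgeR (19 lower and 0 higher at an unadjusted p below 0.05), and the 26 less abundant members had 0.03 with 0 lower and 2 higher (7.69%). The 10.5% and 7.69% lie near the 8.77% of all genes called lower and the 11.0% called higher, so in the reported fit these counts add no result about the members. Of all genes, 15.3% were lower and 16.8% higher at an unadjusted p below 0.05. The 6 lower of the 57 became 32 without C3 replicate 1, 2 without C3 replicate 2 or control replicate 2 and 1 without C3 replicate 3. They became 16 with DESeq2, 18 with GC content corrected, 13 with limma-voom and 14 with no count filter. Of all genes past the reported count filter, 8.74%, 13.1%, 9.10% and 7.51% were lower in these fits. The count was 5 with length corrected, library size alone, the stricter filter or the replicate block. Differences from all genes were not tested. The same level held 159 genes that are no members, with a median of -0.09 and with 37 lower (23.3%) and 7 higher (4.40%).

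**Figure D4:**
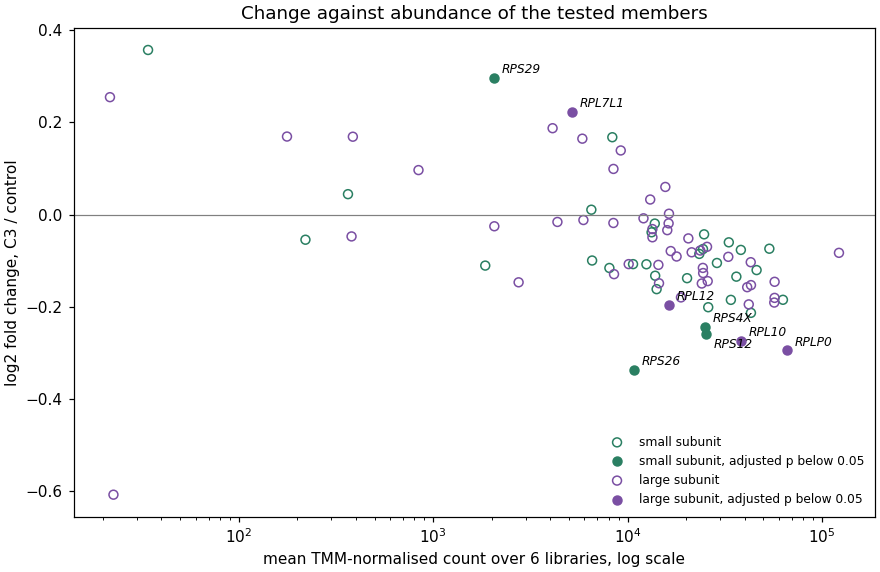
Log2 fold change of C3 over control against the mean normalised count of the 6 libraries (log axis) for the 83 tested members, by subunit; filled points had an adjusted p below 0.05 (edgeR). The 6 called falls all lie above 10000 normalised counts, and RPS29 and RPL7L1 lie below.

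Some ribosomal proteins have a relative encoded by a second gene, and these pairs were compared within libraries, where scaling cancels. The log2 ratio of RPL7L1 to RPL7 was -2.32, -2.46 and -2.47 in control libraries 1 to 3 and -2.17, -2.00 and -2.03 in C3 libraries 1 to 3. All C3 ratios were higher, by 0.35 at the mean, and the two-sided exact permutation test gave 0.1, the smallest p that 3 against 3 libraries allow. RPL39L, known from testis as a relative of RPL39, had log2 ratios to RPL39 of -7.41, -7.18 and -7.29 in control and -7.71, -8.13 and -7.87 in C3 libraries. All C3 ratios were lower, by 0.60 at the mean, with the same exact p of 0.1. RPL39L itself had only 23, 26 and 27 raw counts in control and 19, 14 and 24 in C3 libraries, and its log2 fold change of -0.61 had a standard error of 0.32 and an adjusted p of 0.199 from edgeR.

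The other pairs overlapped between groups. RPL22L1 to RPL22 had mean log2 ratios of -4.13 ± 0.26 in control and -3.80 ± 0.076 in C3 libraries (SD, n = 3, exact p = 0.3). RPS27L to RPS27 had -4.22 ± 0.22 and -4.10 ± 0.30 (SD, n = 3, exact p = 0.6), and RPL26L1 to RPL26 had -1.08 ± 0.20 and -1.22 ± 0.23 (SD, n = 3, exact p = 0.5). For RPL36AL to RPL36A the ratios were 6.81 ± 0.83 and 6.44 ± 0.40 (SD, n = 3, exact p = 0.6), which means that here the relative had far more counts than its partner. The levels of the partners RPL36A and RPL26 are uncertain because they share exons with other genes, as described below, and so are these ratios. With 6 ratios compared and a smallest p of 0.1, none could pass 0.05. RPL3L, the heart and muscle relative of RPL3, had 2, 5 and 5 raw counts in control and 4, 3 and 5 in C3 libraries and was not tested. RPL10L, the testis relative of RPL10, had 0 counts in all 6 libraries, which allows up to 3 counts, or 0.027 CPM over the 6 libraries.

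Levels between genes were compared per length, in TPM, counts divided by the merged exon length of each gene and scaled to the same sum in each library. Among the highest members in control libraries were RPS12 (7949.6 ± 216 TPM), RPL13A (7202 ± 63.4), RPS2 (5189 ± 231) and RPL7A (4949 ± 46.3; SD, n = 3). Of these 4, only RPS2 and RPL7A had mean ± SD ranges that overlapped. The tested members had a median of 1088 TPM with quartiles of 387 and 1742. Merged exons of some members take in long alternative transcripts. With the length of the canonical transcript in their place, an alternative chosen after the data were seen, RPL13A (11498 TPM) led and RPS12 (5629.99) ranked 11.

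At the other end stood RPL36A, with 0.930 ± 0.501 TPM, and RPS10, with 2.41 ± 0.967, in control libraries (SD, n = 3). Near them were the relatives RPL39L (4.89 ± 0.699) and RPS27L (7.54 ± 0.098). RPL36AL, the relative of RPL36A, had 569 ± 20.2 TPM in the same libraries. Raw counts of RPS10 were 20, 25 and 38 in control and 24, 46 and 54 in C3 libraries, and those of RPL36A were 19, 9 and 27 and 16, 29 and 31. In the annotation, 84.0% of the bases of the canonical RPS10 transcript lie in exons of the read-through gene RPS10-NUDT3, and 43.8% of those of RPL36A in RPL36A-HNRNPH2. For RPL17 the share with RPL17-C18orf32 and small nucleolar RNA genes was 96.9%, and for RPL26 the share with another gene of its strand was 65.3%. No member that shares over 40% of its canonical transcript on its strand exceeded 909 normalised counts in any library. The read-through rows themselves held at most 2 counts in a library. How reads on shared exons were treated is not given in the sources used here, and the part of this overlap in the low values was not tested. Levels of these 4 members are uncertain for this reason.

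**Figure D5:**
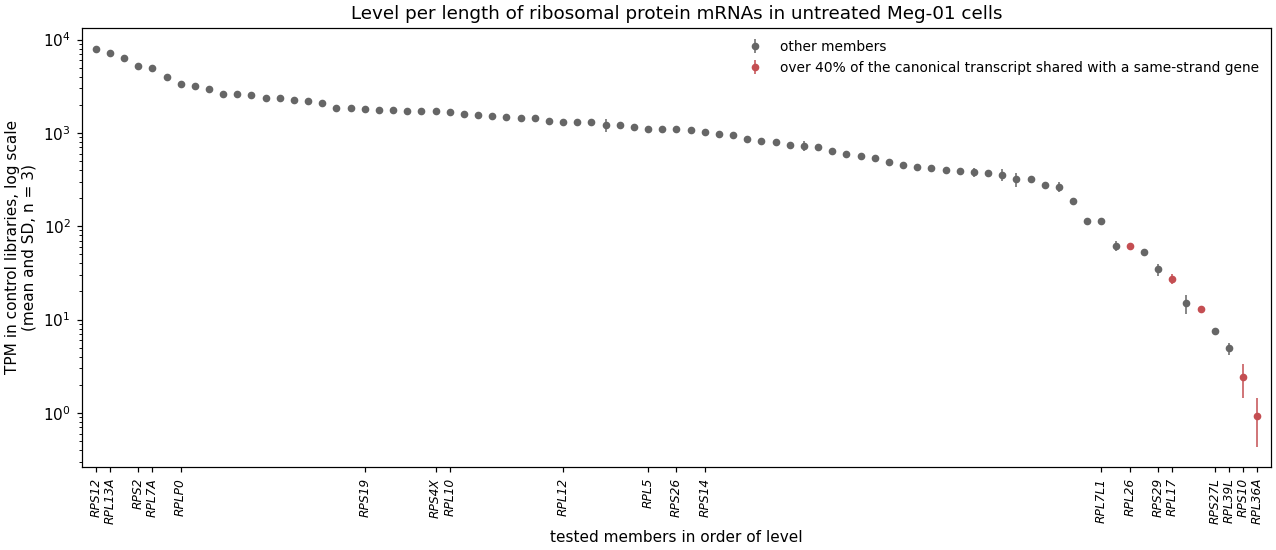
TPM (log axis) of the 83 tested members in control libraries, mean with SD (n = 3), in order of level, some of them named; red points share over 40% of their canonical transcript with another gene of the same strand. RPS12 leads at 7949.6 TPM, and RPS10 and RPL36A, both red, end the order at 2.41 and 0.930 TPM.

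Reads can also be split with processed pseudogenes, of which ribosomal protein genes have many. The table held 1599 pseudogene rows named after a member, and 83 of these had at least 10 counts in at least 3 libraries. Together they held 1.02% as many counts as the members. Counts on pseudogene rows exceeded those of the parent for RPL36A (704%) and RPS10 (106%), and reached 57.1% for RPL17, 13.1% for RPS2, 12.5% for RPL23A, 11.0% for RPL41 and 7.70% for RPL26, against a median of 0.128%. Adding these rows to their parents left the 6 lower and 2 higher members the same genes.

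Of the 18 Diamond-Blackfan anemia genes on the list used, all were tested, RPS26 fell (5.56%, against 8.77% of all genes), RPS29 rose (5.56%, against 11.0%), and the median log2 fold change was -0.06. Without C3 replicate 1, 4 were lower and 0 higher. RPS19, the gene most often affected in that disease, had normalised counts of 32319, 32632 and 36687 in control and 35017, 31421 and 31065 in C3 libraries 1 to 3. Control and C3 values overlapped, and its log2 fold change was -0.06 (SE 0.071, edgeR's adjusted p = 0.61). RPL5 and RPL11, which with 5S RNA bind MDM2 when assembly fails, had log2 fold changes of -0.08 (edgeR's adjusted p = 0.44) and -0.05 (edgeR's adjusted p = 0.66). RPS14 had 27262, 28293 and 27882 normalised counts in control and 28276, 21903 and 22434 in C3 libraries. C3 library 1 lay within the control range and the other C3 libraries well below it, and the log2 fold change was -0.20 (SE 0.079, edgeR's adjusted p = 0.074).

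The rule leaves out FAU, whose product is a fusion of a ubiquitin-like protein with a ribosomal protein, and RACK1, a scaffold on the small subunit. Their log2 fold changes were -0.12 and -0.20 with edgeR's adjusted p-values of 0.22 and 0.071, and both overlapped between groups. RACK1 was called lower by DESeq2, by limma-voom, with GC content corrected and with no count filter. Without C3 replicate 1, both FAU and RACK1 were called lower. Of 17 tested TOP mRNAs of other proteins, 5 were lower (29.4%, against 8.77% of all genes) and 0 higher (against 11.0%), with 7 and 1 at an unadjusted p below 0.05 and a median of -0.12. EEF1A1, the elongation factor that brings aminoacyl-tRNA and the gene with most counts, fell from 508667 ± 12612 to 400933 ± 34006 normalised counts (SD, n = 3 libraries, log2 fold change -0.34, edgeR's adjusted p = 0.0034). EIF3F (-0.30) and EIF3L (-0.21) of initiation factor eIF3 also fell. EEF1A1 lost its call without C3 replicate 3 or control replicate 2, and EIF3L in 5 of the 6 fits with a library left out, all but that without C3 replicate 1, and with library size alone. EIF3F kept it in all 19 alternatives. The count of 5, which EEF1B2 and TPT1 complete, fell to 1 without C3 replicate 3 or control replicate 2, and to 2 without C3 replicate 2, without control replicate 3 or with library size alone. EEF1B2 lost its call without C3 replicate 2, C3 replicate 3, control replicate 2 or control replicate 3. TPT1 lost its call in 5 of the 6 fits with a library left out, all but that without control replicate 1.

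Genes that control or build ribosomes gave mixed counts. Shares in the lists are to be read against the 8.77% of all genes called lower and the 11.0% called higher. Of 15 mTOR and TOP mRNA regulators, 6 were lower (40%) and 0 higher by edgeR (7 and 1 at an unadjusted p below 0.05). AKT1S1, an inhibitor of mTOR complex 1, had a log2 fold change of -0.32, MLST8, a subunit of the complex, -0.26, and EIF4EBP2, a translational repressor, -0.24. DEPTOR, RPS6KB2 and TSC2 complete the 6. The count fell to 3 without C3 replicate 2, C3 replicate 3, control replicate 1 or control replicate 2, and with library size alone. DEPTOR, RPS6KB2 and TSC2 each lost the call without C3 replicate 2 or control replicate 1. RPS6KB2 and TSC2 also lost it without C3 replicate 3, DEPTOR and TSC2 without control replicate 2, and DEPTOR without C3 replicate 1. LARP1 (0.16, edgeR's adjusted p = 0.085) did not pass in the reported fit. LARP1 was called higher with GC content corrected, with or without the replicate block, with library size alone and with no count filter. It was also called higher without C3 replicate 1 or control replicate 1, and LARP4 without C3 replicate 1. Of 33 translation initiation factors, 3 were higher (9.09%) and 6 lower (18.2%), led by EIF5B (0.44), which joins the subunits, EIF4G3 (0.37) and EIF3F. The 6 lower became 1 without C3 replicate 3 or with library size alone, 3 without C3 replicate 2 or control replicate 2, 4 without control replicate 1 or control replicate 3 and 11 with DESeq2. Of 82 tested ribosome biogenesis factors, 8 were higher (9.76%) and 3 lower (3.66%), with a median of -0.02. The 8 higher became 2 without C3 replicate 2, C3 replicate 3 or control replicate 2, 12 without C3 replicate 1 and 14 with library size alone. The 3 lower became 0 without C3 replicate 3 or control replicate 1, 1 without control replicate 2, 12 without C3 replicate 1 and 13 with GC content corrected. TCOF1, a nucleolar factor of ribosomal RNA synthesis, rose from 2121 ± 209 to 3007 ± 286 normalised counts (SD, n = 3, log2 fold change 0.50, edgeR's adjusted p = 2.5e-05). MDN1, an ATPase of large subunit assembly, had 0.30 and NOL6, a small subunit processing factor, -0.26. None of 15 genes of the RNA polymerase I machinery was called in the reported edgeR fit (2 higher and 1 lower at an unadjusted p below 0.05; POLR1C -0.19, TAF1D 0.20, POLR1A 0.13), and none by DESeq2 or limma-voom. Other edgeR fits called 1 lower and 2 higher with GC content corrected, 2 higher with library size alone and 1 lower with the replicate block. There were 1 lower and 1 higher without C3 replicate 1 or for the block with GC content corrected, and 1 higher without control replicate 3. Of 12 tested importins and assembly chaperones, GRWD1 (-0.26), a chaperone of RPL3, fell (8.33%), while BCCIP (0.15) and AAMP (-0.11) did not pass in the reported fit. BCCIP was called higher without control replicate 3, with library size alone, and with GC content corrected, with or without the replicate block. AAMP was called lower with GC content corrected. Calls were lost for MLST8 without C3 replicate 3 or control replicate 2, for NOL6 without C3 replicate 3 or control replicate 1, for GRWD1 without C3 replicate 3 and for MDN1 without control replicate 3. AKT1S1, EIF4EBP2, EIF5B, EIF4G3 and TCOF1 kept theirs in all 19 alternatives.

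Mitochondrial ribosomal proteins, which form the separate ribosome of the mitochondrion, were set beside the cytosolic ones as the most alike group. Of 77 tested, 12 were lower (15.6%, against 7.23% of the cytosolic members and 8.77% of all genes) and 0 higher by edgeR (against 11.0% of all genes). At an unadjusted p below 0.05, 25 were lower and 0 higher, where 15.3% and 16.8% of all genes passed, and 1 was lower by the study's gates. The difference between the groups of genes was not tested, and it turned in other fits. DESeq2 called 13 of 78 mitochondrial and 16 of 84 cytosolic genes lower. Without C3 replicate 1 the counts were 23 of 77 and 32 of 83. With limma-voom they were 12 of 77 and 13 of 83, nearly the same share. With GC content corrected, 22 of 77 and 18 of 83 were lower, so there the mitochondrial share stayed higher. The median of -0.07 of the mitochondrial genes was close to the -0.09 of the cytosolic members. MRPS7 (-0.35), MRPL27 (-0.38) and MRPS2 (-0.27) had the smallest p-values, and among these genes MRPS2 lost its call without C3 replicate 3. The 12 lower became 4 without C3 replicate 3, 5 without control replicate 2 or with library size alone, 8 without C3 replicate 2 or control replicate 1, 23 without C3 replicate 1 and 22 with GC content corrected.

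The cell type label was checked against markers. Levels are in CPM (counts scaled per library total). Of 13 megakaryocyte and platelet markers, 10 reached 1 CPM, their sum was 1428 to 1521 CPM in control and 1441 to 1496 CPM in C3 libraries, and GP1BB and PF4 were at 0. In this list GP1BA (-0.49), NFE2 (-0.38) and TUBB1 (-1.36) fell and ITGB3 (0.34) rose, a call that was lost with DESeq2 and in 5 of the 6 fits with a library left out, all but that without C3 replicate 1. Erythroid markers summed to 64.3 to 73.0 CPM in control and 80.5 to 83.3 CPM in C3 libraries (5 of 8 at 1 CPM or more, EPOR 0.35, HBA2 -0.68, KLF1 0.14). The call of HBA2 was lost with DESeq2 and without C3 replicate 2, C3 replicate 3, control replicate 1 or control replicate 2. Monocyte markers summed to 36.0 to 37.2 and 28.1 to 30.6 CPM (2 of 3, LYZ -0.51, CSF1R 0.26) and epithelial ones to 8.64 to 11.2 and 9.64 to 11.0 CPM (1 of 3, EPCAM -0.06). T cell markers summed to 1.71 to 2.54 and 1.97 to 2.84 CPM, B cell markers to 2.83 to 4.04 and 3.11 to 4.12 CPM, and fibroblast markers to 0.309 to 0.518 and 0.908 to 1.80 CPM (0 of 3 at 1 CPM or more, COL1A1 1.89, called by edgeR and not by DESeq2). MS4A1 and KRT5 were at 0, and the part of these markers in the results was not tested.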

How the data were processed

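The submitters' processing notes name fastp for the reads, STAR 2.6.1d for alignment and featureCounts 1.5.0-p3 for counting, on GRCh38. The values the authors deposited are raw counts per Ensembl gene, and 58207 of 58735 rows had an entry in GENCODE release 44, which gave symbols, coordinates, lengths and GC content. No source used here gives the annotation release, strand setting or treatment of multi-mapped reads, so counts of overlapping or duplicated genes may be incomplete.

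Genes that reached 10 counts in 3 or more libraries were tested, scaled by TMM and compared by edgeR 4.0.16 (quasi-likelihood test, R 4.3.3, Benjamini-Hochberg over all 15078 genes). Calls needed an adjusted p below 0.05. The study's gates were also read. Normalised counts are counts over the effective library size times its mean. Standard errors are log2 fold changes over the root of F. Ratios used a pseudocount of 0.5. Fits were tested on simulated data for this comparison with 200 changed genes. Among 15070 genes, edgeR recovered 50% of 1.3-fold, 72% of 1.5-fold, 82% of 2-fold and 98% of 3-fold changes, so small changes could be missed. DESeq2 recovered 67.5% over all folds, below a first criterion of 70%, and the criterion was then replaced by limits on bias, false calls and the recovery of 3-fold changes.

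Members and lists were chosen with earlier results of these data known. Named were called members, the pairs, the 5 highest and 5 lowest per length, RPS19, RPL5, RPL11 and RPS14, ribosome parts outside the rule, and the 3 smallest p-values of each list, and a few of these are not reported here. The alternatives included DESeq2 1.42.0, limma-voom (limma 3.58.1), other scalings and filters, a replicate block, GC and length corrections (loess, span 0.3) and each library left out. Read-through rows added to their parents and TPM from canonical transcripts were chosen after the data were seen.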

Additional observations from a re-analysis of the deposited data

How the results depend on the processing

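The count of lower members was 16 with DESeq2, 18 with GC content corrected, 13 with limma-voom, 14 with no count filter and 10 for the replicate block with GC content corrected, against 6. These are 19.0%, 21.7%, 15.7%, 16.7% and 12.05% of members, where 4.09%, 13.1%, 9.10%, 3.93% and 11.5% of all genes in the same fit were lower, and among genes past the reported count filter 8.74% with DESeq2 and 7.51% with no filter. With each library left out it ranged from 1 to 32. The count of higher members was 1 with DESeq2 and with gene length corrected, 5 with no count filter and with the block and GC correction, and 0 to 6 with each library left out, against 2. By the study's gates, 0 to 2 members were lower and 0 to 1 higher with each library left out. The replicate block alone gave 5 lower and 3 higher members (6.02% and 3.61%), against 10.3% and 12.3% of all genes. Replicate numbers were not shown to pair the libraries, with correlations of deviations between same-numbered libraries of 0.073, -0.069 and 0.048. Adding pseudogene rows, adding read-through rows, RLE factors and TMM factors from non-members each gave 6 and 2. The cause of these shifts was not tested. The median of all members stayed below 0 throughout, from -0.12 to -0.01.

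Sign changes are listed only for the genes named by the choices above, not for every member. Among these genes, the sign under library size alone changed for RPL11 (0.020), RPL26L1 (0.026), RPL36AL (0.048), RPL39 (0.057), RPS19 (0.012), CD2 (0.014), CD79A (0.0015) and EPCAM (0.015). Over all tested members, 49 values were below 0 in that fit, against 66 in the reported one. RPL39 was also 0.0018 with GC content corrected, 0.0056 with the replicate block and GC correction and 0.024 with length corrected. With each library left out, 52 to 68 of all tested members had values below 0, against 66. Among the named genes, values in these fits spanned 0 for RPL11 (-0.11 to 0.0012), RPL26L1 (-0.14 to 0.083), RPL36A (-0.080 to 0.73), RPL36AL (-0.065 to 0.045), RPL39 (-0.078 to 0.12), RPS19 (-0.11 to 0.0015), RPS27 (-0.17 to 0.068), RPS27L (-0.0078 to 0.13), CD2 (-0.23 to 0.19), CD79A (-0.22 to 0.071) and EPCAM (-0.15 to 0.044), none of them called in the reported fit. So did the log2 ratio differences of RPL36AL to RPL36A (-0.75 to 0.071) and of RPS27L to RPS27 (-0.030 to 0.27). Over the 14 results that answer a comparison (counts of calls, medians, ratios and the share of counts) and all alternatives, 160 of 183 values stayed close to the reported one, 20 moved further and 3 changed sign. Over single genes and lists, 1412 values in all, 1270 values stayed on their side of 0 and of the threshold or close to the reported value, 43 became called, 50 lost a call, 26 changed sign and 23 moved further.

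The counts of calls in the gene lists also moved by over 1.5 times with single libraries left out, with values beside each list, and the cause was not tested. Raw counts of RPL36A, RPS10 and RPL39L were at most 54 in every library, and their standard errors (0.37, 0.30 and 0.32) were over 4 times that of the median member (0.072).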
